A study of Homo sapiens with 6 samples.

Results

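The zinc finger genes of chromosome 19 were taken as all protein-coding genes on that chromosome whose symbol is ZNF followed by a number, with or without a closing letter. The annotation, GENCODE release 29 on the human build hg38, holds 246 of them, and 212 were found among the 29810 genes of the expression table; the other 34 were not analysed here. The rule used no measured value. A level of 1 FPKM or more in 3 or more of the libraries was required for a test of I1 against control, and 132 of the 212 genes met it, while 80 did not.

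Most of these genes encode C2H2 zinc finger proteins, in which a row of short fingers, each folded around a zinc ion by a pair of cysteines and a pair of histidines, reads a stretch of DNA. Many also carry a KRAB domain at their start, which recruits the corepressor TRIM28 (KAP1) and, through it, the histone H3 lysine 9 methyltransferase SETDB1, and these proteins are best known for silencing retroelements. The family grew by repeated local duplication, so chromosome 19 carries its members in clusters, and close copies share sequence.

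RNA came from Kasumi-1, an established line of human myeloblasts from acute myeloid leukaemia that carries the RUNX1-RUNX1T1 fusion of the t(8;21) translocation. One group of 3 samples was kept with the compound I1 (no other name is given) at 0.125 µM for 48 h, and the other group of 3 with a control, also for 48 h, whose content the labels do not state. Whether samples of 1 group are separate cultures is not stated, and the p-values therefore reflect a spread that may be technical. Levels are FPKM, fragments per kilobase of exon scaled by a library total, in bulk RNA, in which fewer cells of a type and less RNA per cell cannot be told apart.

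The totals used for scaling were 16391000, 16948000 and 16622000 fragments in I1 replicates 1 to 3 and 18204000, 17331000 and 17686000 in control replicates 1 to 3. One read per kilobase of exon corresponded to 0.0549 to 0.061 FPKM. All 9 markers of the line, among them KIT, CD34, RUNX1T1 and MPO, were at 1 FPKM or more, whereas COL1A1, HBA1, KRT8, KRT18 and CD3E were at or near 0. CD3D and CD79A reached 1.27 and 1.57 FPKM at most, and EPCAM, an epithelial gene, stood at 23.2 to 31.3 FPKM. Control replicate 1 stood apart from the other 5 libraries, at -43.8 on the first principal component of all tested genes (52.1% of the variance), against -2.90 to 19.8. Its genes of high GC content were higher and those of low GC content lower than in the other controls. Values without it are therefore given beside many of the results.

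The coding sequence of these genes spans a wide range of base composition, and the differences between I1 and control ran with it. A finger of each of 8 named members is shown here to make that range visible, 4 from genes whose exons are poor in G and C and then 4 from genes rich in them. The 8 were picked among the members of largest positive and negative moderated t, so the first 4 were higher and the last 4 lower with I1 by choice. Each is the first match in the reference transcript (GENCODE release 29, hg38) to a finger with the linker that follows it, 84 bases in all, with the codons of the zinc-binding cysteines and histidines in capitals. ZNF414 and ZNF653 were searched as well but gave no such match in an unbroken stretch.
ZNF260 (chr19:36514903-36514986, minus strand): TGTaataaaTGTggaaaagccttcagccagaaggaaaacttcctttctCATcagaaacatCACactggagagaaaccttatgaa
ZNF431 (chr19:21183003-21183086, plus strand): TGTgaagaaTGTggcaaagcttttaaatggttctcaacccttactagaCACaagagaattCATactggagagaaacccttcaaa
ZNF121 (chr19:9566594-9566677, minus strand): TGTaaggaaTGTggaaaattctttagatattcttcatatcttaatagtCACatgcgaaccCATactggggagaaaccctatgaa
ZNF146 (chr19:36236492-36236575, plus strand): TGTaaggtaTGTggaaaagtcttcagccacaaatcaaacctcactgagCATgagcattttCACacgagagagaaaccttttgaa
ZNF579 (chr19:55579421-55579504, minus strand): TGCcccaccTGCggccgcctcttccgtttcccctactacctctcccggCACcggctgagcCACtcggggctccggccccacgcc
ZNF865 (chr19:55614294-55614377, plus strand): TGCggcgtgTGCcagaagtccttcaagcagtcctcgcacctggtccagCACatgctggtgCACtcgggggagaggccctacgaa
ZNF628 (chr19:55481305-55481388, plus strand): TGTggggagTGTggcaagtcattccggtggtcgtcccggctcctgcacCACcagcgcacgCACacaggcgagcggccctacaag
ZNF574 (chr19:42080095-42080178, plus strand): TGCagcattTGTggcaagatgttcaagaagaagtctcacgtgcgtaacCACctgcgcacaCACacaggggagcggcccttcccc
The spacing of the capitals is the same in all 8, while the bases between them differ, with G or C more frequent in the last 4. GC content was 35.7% to 40.5% in the first 4 fingers and 57.1% to 73.8% in the last 4. At the third base of codons, where a change often leaves the amino acid as it is, it was 28.6% to 42.9% in the first 4 and 78.6% to 96.4% in the last 4. Over whole exons the 212 genes ranged from 34.7% to 71.1% GC, with a median of 43.7%.

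Most members were expressed at a low level. On the mean of all 6 libraries, 6 members reached 10 FPKM, 13 lay between 5 and 10, 109 between 1 and 5, and 84 under 1, of which 30 were under 0.1. Together they made up 0.203%, 0.180% and 0.183% of all FPKM in the I1 libraries and 0.166%, 0.165% and 0.174% in the control libraries. The number of members at 1 FPKM or more was 135, 128 and 134 with I1 and 108, 121 and 125 in control. All 3 I1 libraries thus lay above all 3 control libraries in both the share and the number. The member with the least mean level among those tested was ZNF724 at 0.952 FPKM, and the one with the greatest among those not tested was ZNF814 at 0.972 FPKM.

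The comparison asked whether transcripts of this family differed after 48 h with I1. More members were higher than lower with I1, but none passed the threshold, a log2 fold change of 1 or more in size together with a limma p under 0.05 after Benjamini-Hochberg adjustment over 11913 genes. That threshold was passed by 0.0336% of all tested genes, all of them higher with I1. The smallest adjusted p of a member was 0.467, and it was 0.140 with the replicate number as a block (0.128 to 0.942 over the settings tried). At an unadjusted p under 0.05 there were 14 members higher and 1 lower, or 10.6% and 0.758% of the tested members, beside 6.8% and 2.77% of all tested genes (9.57% in either direction). With the replicate block 22 members (16.7%) had an unadjusted p under 0.05, beside 27.1% of all tested genes. With a correction for GC content 5 members (3.79%) had one, beside 5.21% of all tested genes.

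The log2 fold change of the 132 tested members, on the scale of log2(FPKM + 1), had a median of 0.16, an interquartile range of -0.02 to 0.25 and extremes of -0.44 and 0.64. It was above 0 in 95 members (72.0%), beside 54.5% of all tested genes and 52.5% of tested protein-coding genes. Of the members, 35 (26.5%) had all 3 I1 values above all 3 control values and 5 (3.79%) had them all below, beside 12.9% and 8.74% of all tested genes and 12.8% and 9.87% of tested protein-coding genes. In same-numbered pairs of samples the median difference was 0.30, 0.08 and 0.06, beside 0.087, 0.020 and 0.0011 over all tested genes. Of the members 58 were higher with I1 in 3 of 3 pairs and 16 were lower in 3 of 3, counts for which no share over all tested genes is given. Without control replicate 1 the median over members was 0.09, and 106 members were above 0. The scale understates the fold of genes with low FPKM, which most members have.

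**Figure D1:**
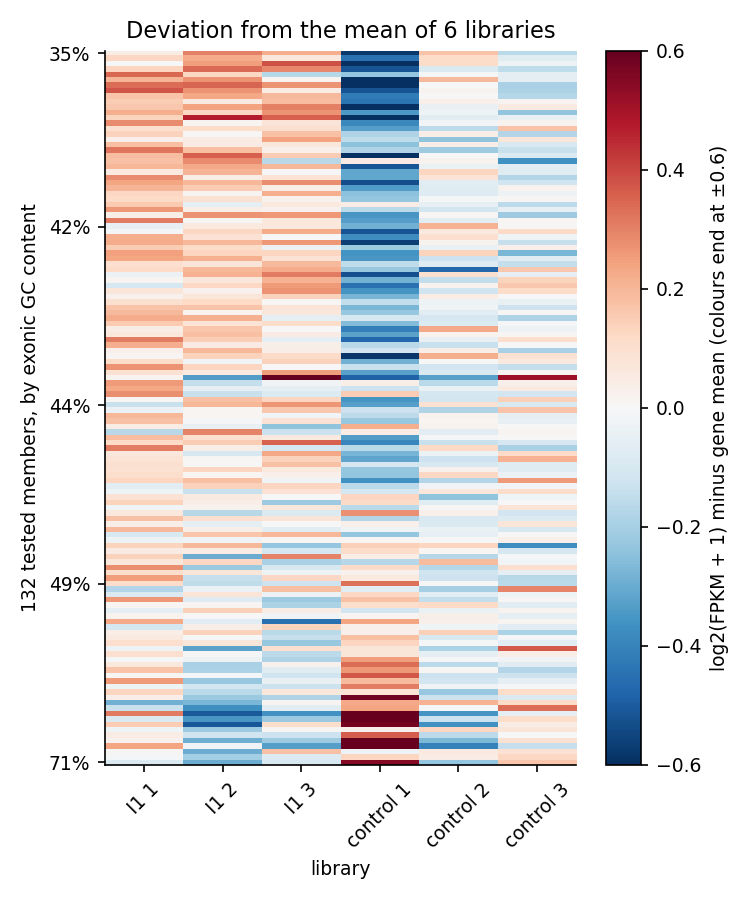
Deviation of log2(FPKM + 1) from the mean of the 6 libraries for each of the 132 tested members (rows, by exonic GC content from 34.7% at the top to 71.1% at the bottom) in the I1 and control libraries (columns). Control replicate 1 is low for rows of low GC content and high for rows of high GC content, while the 3 I1 libraries lean the other way at the top.

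The direction of a member followed its GC content. All 36 tested members under 42% GC were higher with I1 (median log2 fold change 0.26), as were 33 of 34 members between 42% and 45% (median 0.20) and 22 of 34 between 45% and 50% (median 0.09). Of the 28 members at 50% or more, 4 were higher and 24 lower, with a median of -0.14. With control replicate 1 left out, the medians of the 4 classes, from low to high GC, were 0.18, 0.11, 0.05 and -0.0025, and 35, 30, 27 and 14 members were above 0. Groups that did not overlap were higher with I1 for 19, 11, 5 and 0 members from the lowest to the highest GC class (52.8%, 32.4%, 14.7% and 0%). They were lower for 0, 0, 0 and 5, the last being 17.9% of its class. Over all tested genes, of every GC content, the shares were 12.9% and 8.74%. Shares of other genes within each class are not given, so these counts do not set the members apart. Across the 132 members Spearman's rho between GC content and log2 fold change was -0.863. It was -0.848, -0.522 and -0.625 in the 3 same-numbered pairs and -0.656 without control replicate 1. These genes share the same 6 libraries and are not independent replicates.

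The same order was present outside the family. Among 9726 tested protein-coding genes that are not members rho was -0.824, and among 181 ZNF genes of other chromosomes it was -0.859. The difference between control replicate 1 and the mean of the other controls followed GC content as well, with a rho of 0.737 over members, and it shares that library with the fold change. Members under 50% GC were lower in control replicate 1 by a median log2 difference of -0.21, and those of 50% or more were higher by 0.25. After the correction for GC content rho over members was 0.031. Other properties of the 132 genes ran less closely with the fold change: rho was -0.738 for GC at the third base of codons, -0.426 for GC of the promoter window in 122 genes, 0.464 for exonic length, 0.269 for the number of fingers and -0.204 for the mean FPKM. What set the relation with GC content was not tested.

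**Figure D2:**
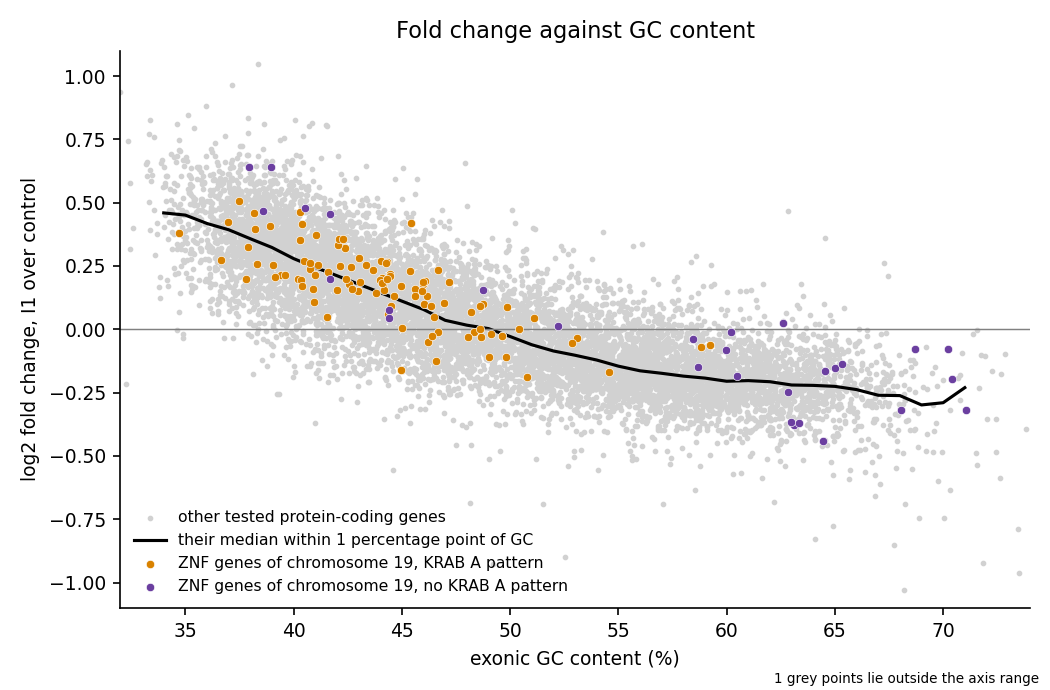
Log2 fold change of I1 over control (y axis) against exonic GC content in percent (x axis) for tested members, coloured by whether a KRAB A pattern was found, and for other tested protein-coding genes in grey, with their median as a line. Members lie along the line of the other genes, above 0 at low GC content and below 0 at high GC content.

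Set against other genes of like GC content, the median of the family differed little between I1 and control. A larger share of members than of those genes had I1 above control without overlap. For each member the median log2 fold change of tested protein-coding genes outside the family within 1 percentage point of its GC content was subtracted, with 53 to 935 such genes per member (median 761). For 129 members this could be done, and the remaining difference had a median of 0.04, with 76 members above 0 and 53 below. In same-numbered pairs the median was 0.032, 0.044 and 0.025 (SD of the pairs 0.0098). Of the like-GC genes themselves 67.2% had a log2 fold change above 0, 15.8% had I1 above control without overlap and 5.65% had I1 below control, beside 72.0%, 26.5% and 3.79% of the tested members. The correction for GC content in the fit left members with a median of 0.03, and 77 of 132 above 0 (58.3%). Over all genes tested in that fit the median was -0.003, and 5841 of 11899 were above 0.

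ZNF genes elsewhere in the genome showed a remaining difference of the same size, 0.04 over the 180 of 181 genes with enough genes of like GC content, from a median log2 fold change of 0.12 over the 181 (0.06 without control replicate 1). The other 598 tested protein-coding genes of chromosome 19, many of them rich in GC (median 59.9%), had a median log2 fold change of -0.18 (-0.10 without control replicate 1) but a remaining difference of 0.01 over 589 of them. The 7 tested zinc finger genes of chromosome 19 with other symbols (of 16 in the table), such as ZFP30, ZFP82 and MZF1, had a median log2 fold change of -0.02 and a remaining difference of 0.0005, which were 0.04 and 0.04 without control replicate 1. Without control replicate 1 the remaining difference of the members was 0.056. No test of the list was run, and these medians describe it.

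**Figure D3:**
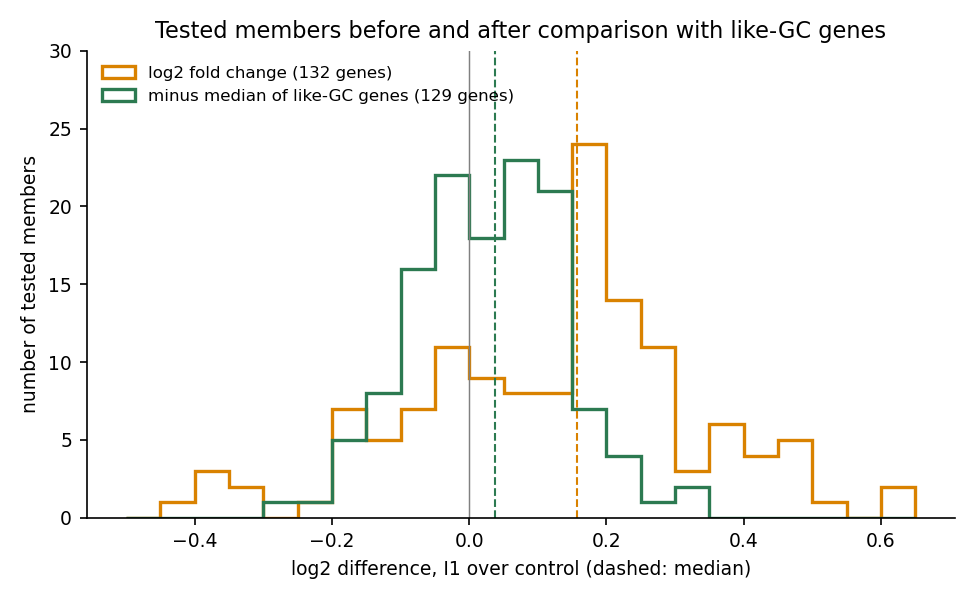
Number of tested members (y axis) by log2 fold change of I1 over control and by that value minus the median of other protein-coding genes of like GC content (x axis), in steps of 0.05, with dashed lines at the medians of 0.16 and 0.04. The second distribution is narrower and lies nearer to 0.

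The member with the highest level was ZNF146 (ENSG00000167635; chr19:36214602-36238774, plus strand), a small protein made almost wholly of fingers. It had 44.7, 43.8 and 45.9 FPKM in I1 replicates 1 to 3 and 25.4, 38.6 and 34.5 FPKM in control replicates 1 to 3. Every I1 sample was above every control sample, and the lowest control was replicate 1. The log2 fold change was 0.46 with a standard error of 0.16 and a limma adjusted p of 0.467, of which 0.23 remained over genes of like GC content, and it was 0.29 without control replicate 1. ZNF121 (ENSG00000197961; chr19:9560353-9584533, minus strand) had 13.8, 13.5 and 14.3 FPKM with I1 and 7.72, 11.0 and 10.6 FPKM in control, again without overlap. Its log2 fold change was 0.48 ± 0.15 (SE; limma adjusted p = 0.467), with 0.21 remaining over genes of like GC content.

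ZNF260 (ENSG00000254004; chr19:36510695-36528660, minus strand), whose rat counterpart is known as a partner of GATA4 in heart cells, had 4.35, 4.40 and 4.11 FPKM with I1 and 1.495, 3.24 and 2.70 FPKM in control. The groups were apart, and control replicate 1 was the lowest of all. Its exons hold 38.0% GC, and its log2 fold change of 0.64 ± 0.20 (SE; limma adjusted p = 0.467) left 0.28 over genes of like GC content and was 0.42 without control replicate 1. ZNF431 (ENSG00000196705; chr19:21142024-21196053, plus strand), at 37.5% GC, had 1.61, 2.02 and 1.92 FPKM with I1 and 0.669, 1.25 and 1.15 FPKM in control. The groups did not overlap there either, and of a log2 fold change of 0.51, 0.13 remained.

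ZNF587 (ENSG00000198466; chr19:57849857-57865112, plus strand), which with its copy ZNF417 is known to silence endogenous retroviruses, had 3.49, 3.60 and 4.28 FPKM with I1 and 2.15, 2.76 and 2.85 FPKM in control. Its GC content of 45.4% is higher than that of the genes above, and 0.32 of its log2 fold change of 0.42 remained over genes of like GC content. ZNF587 shares 18.2% of its 50-base stretches with other members, chiefly ZNF417, so its reads may be split between the copies. ZNF417 itself had 2.41, 2.25 and 2.55 FPKM with I1 and 1.59, 1.96 and 2.73 FPKM in control, which overlap. ZNF566 (ENSG00000186017; chr19:36445119-36489902, minus strand) had 3.15, 2.89 and 3.30 FPKM with I1 and 1.81, 2.49 and 2.02 FPKM in control, and 0.08 of its log2 fold change of 0.41 remained. ZNF146, ZNF121, ZNF260, ZNF431, ZNF587 and ZNF566, the 6 members of largest positive moderated t, did not pass (limma adjusted p = 0.467 for each). Each was higher with I1 in 3 of 3 pairs, but they were picked for their difference in these same libraries, so this follows in part from the choice.

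**Figure D4:**
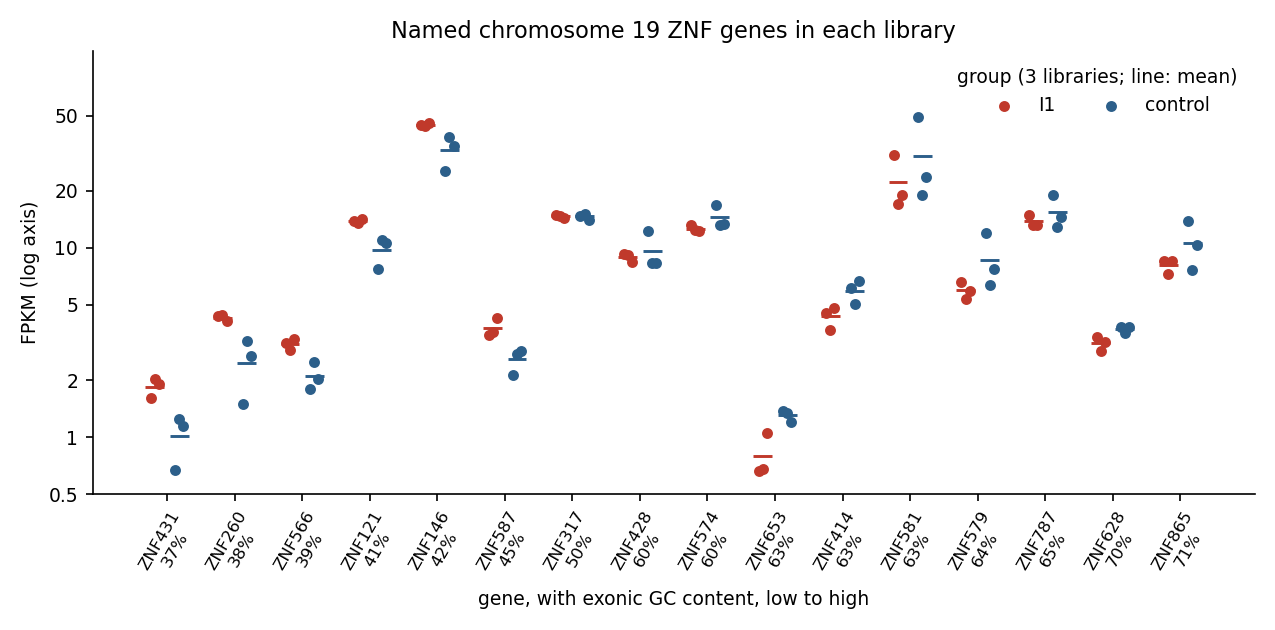
FPKM on a log axis (y axis) of the members named for their level or for their difference (x axis, by exonic GC content from low to high) in the 3 I1 libraries, left of each pair, and the 3 control libraries, right, with lines at the means. The I1 points lie above the control points for the 6 genes of 37% to 45% GC and below them, without overlap, for ZNF574, ZNF653, ZNF414 and ZNF628 among those of 60% or more. Genes named for their difference were picked by moderated t, so the distance between their groups is in part set by that choice.

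At the other end stood members with GC-rich exons. ZNF414 (ENSG00000133250; chr19:8509678-8514164, minus strand), at 63.1% GC, had 4.53, 3.70 and 4.80 FPKM with I1 and 6.15, 5.04 and 6.66 FPKM in control. All I1 values lay below all control values, with a log2 fold change of -0.38 ± 0.15 (SE; limma adjusted p = 0.467) and -0.16 against genes of like GC content. ZNF653 (ENSG00000161914; chr19:11483427-11505923, minus strand), known as a corepressor of the nuclear receptor NR5A1, had 0.665, 0.679 and 1.06 FPKM with I1 and 1.38, 1.35 and 1.20 FPKM in control. It rests on 36 to 83 reads per library, and -0.15 of its log2 fold change of -0.36 remained.

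ZNF579 (ENSG00000218891; chr19:55576770-55580845, minus strand) had the lowest log2 fold change of the family, -0.44 ± 0.21 (SE; limma adjusted p = 0.467), but -0.21 without control replicate 1, where ZNF414 was lowest at -0.35. Its values were 6.61, 5.35 and 5.92 FPKM with I1 and 11.9, 6.39 and 7.73 FPKM in control, where replicate 1 was far above the rest and the groups overlapped. ZNF865 (ENSG00000261221; chr19:55605405-55617269, plus strand) had 8.58, 7.26 and 8.49 FPKM with I1 and 13.9, 7.64 and 10.4 FPKM in control, with the same high replicate and overlap. ZNF628 (ENSG00000197483; chr19:55476332-55484487, plus strand), whose mouse counterpart is needed for sperm formation, had 3.39, 2.85 and 3.19 FPKM with I1 and 3.84, 3.57 and 3.83 FPKM in control, without overlap. ZNF574 (ENSG00000105732; chr19:42068477-42081549, plus strand) had 13.2, 12.4 and 12.2 FPKM with I1 and 16.9, 13.3 and 13.4 FPKM in control, also without overlap. Their log2 fold changes of -0.32, -0.20 and -0.18 did not pass (limma adjusted p = 0.486, 0.488 and 0.512), and the correction for GC content brought them to -0.03, 0.08 and 0.00. ZNF865 was at -0.13 and ZNF574 at -0.08 without control replicate 1, whereas ZNF628 was at -0.18. ZNF865 and ZNF628 exceed 70% GC, where too few genes outside the family were tested for a comparison.

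The other members of high level differed little. ZNF317 (ENSG00000130803; chr19:9140380-9163424, plus strand), at 50.4% GC, had 14.9, 14.7 and 14.5 FPKM with I1 and 14.8, 15.05 and 14.1 FPKM in control, a log2 fold change of 0.00 ± 0.10 (SE) whose sign turned with the scaling. ZNF787 (ENSG00000142409; chr19:56087366-56121280, minus strand) had 14.97, 13.3 and 13.2 FPKM with I1 and 18.96, 12.9 and 14.5 FPKM in control, and ZNF428 (ENSG00000131116; chr19:43607219-43619874, minus strand) had 9.27, 9.16 and 8.41 FPKM with I1 and 12.2, 8.35 and 8.37 FPKM in control. In both the groups overlapped, and the log2 fold changes of -0.14 and -0.08 were above 0 after the correction for GC content (0.10 for each) and without control replicate 1 (0.01 for ZNF787 and 0.09 for ZNF428). ZNF581 (ENSG00000171425; chr19:55635459-55645622, plus strand) had 31.0, 17.1 and 18.99 FPKM with I1 and 49.3, 19.1 and 23.7 FPKM in control. Here replicate 1 was the highest of both groups, the log2 fold change was -0.37 ± 0.35 (SE; limma adjusted p = 0.602), and without control replicate 1 it was 0.02. ZNF581 overlaps ZNF580 on the same strand and shares 18.4% of its 50-base stretches with other members, so its level is uncertain.

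Members were also divided by a sequence pattern for the KRAB A box, searched over the whole protein. The error rate of the pattern was not measured, so some members may stand in the wrong class. A KRAB A pattern was found in the longest coding sequence of 179 members, of which 103 were tested, and not in 33, of which 29 were tested. The summed level of all members with the pattern was 318, 304 and 307 FPKM in the I1 libraries and 243, 280 and 282 FPKM in the control libraries, so that the groups were apart. That of members without it was 223, 190 and 201 FPKM with I1 and 241, 187 and 199 FPKM in control, which overlap. The median log2 fold change was 0.18 with the pattern and -0.08 without. Leaving out control replicate 1 made these 0.10 and 0.03, so that both were above 0, while their median GC content was 44.2% and 60.5%. At the third base of codons the median GC was 40.7% with the pattern and 75.3% without.

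Within a GC class the order of the 2 kinds was not the same. Under 50% GC, the 9 members without the pattern had a median log2 fold change of 0.46, and the 95 with it 0.19. At 50% GC or more, the 20 without it had -0.16 and the 8 with it -0.06. Without control replicate 1 the medians under 50% GC were 0.23 for members without the pattern and 0.12 for those with it, and at 50% or more they were -0.04 and 0.02. Over genes of like GC content, 0.15 remained for the 9 GC-poor members without the pattern, among them ZNF146, ZNF121, ZNF260, ZNF507 and ZNF714, and 0.02 for the 95 with it (0.19 and 0.04 without control replicate 1). ZNF507 (chr19:32345594-32387667), the only member of its cluster, had 5.87, 6.27 and 6.58 FPKM with I1 and 2.75, 4.97 and 5.40 FPKM in control, with a log2 fold change of 0.47, or 0.23 without control replicate 1. ZNF714 (chr19:21082159-21125270) had the highest log2 fold change of the family, 0.64 ± 0.23 (SE; limma adjusted p = 0.467), with 3.29, 4.42 and 4.02 FPKM with I1 and 1.16, 2.74 and 2.79 FPKM in control. Without control replicate 1 it was 0.37, and ZNF260 was then the highest. ZNF507 and ZNF714 are named here because of their values, not by rule. Under 50% GC the 2 kinds also differed in level, with a median of 3.46 FPKM without the pattern and 1.96 FPKM with it. Since the scale understates folds at low FPKM, the remaining differences of 0.15 and 0.02 are mixed with level. The 2 kinds were not tested against each other.

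The number of fingers ranged from 1 to 31 per protein, with a median of 12. Tested members with up to 9 fingers (39 genes, median GC 51.1%) had a median log2 fold change of -0.01, those with 10 to 14 (56 genes, 44.4% GC) 0.18, and those with 15 or more (37 genes, 42.6% GC) 0.19. Over genes of like GC content 0.05, 0.03 and 0.005 remained. Without control replicate 1 the medians were 0.08, 0.10 and 0.11, all above 0, and the remaining differences 0.10, 0.05 and 0.05. By level, 59 members under 2 FPKM had a median of 0.17, 54 members of 2 to 5 FPKM had 0.17, and 19 members of 5 FPKM or more had -0.08. The last class is also the richest in GC, with a median of 59.96%, and 0.05 remained for it. The medians by level were 0.11, 0.08 and 0.01 without control replicate 1.

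Several members with a known part in gene silencing or disease were named by symbol. ZNF274 (ENSG00000171606; chr19:58183029-58213562, plus strand), which brings TRIM28 and SETDB1 to the ends of ZNF genes themselves, had 3.48, 3.31 and 2.92 FPKM with I1 and 3.88, 3.04 and 3.28 FPKM in control. Its groups overlapped and its log2 fold change was -0.05 ± 0.14 (SE; limma adjusted p = 0.850), or 0.02 both after the correction for GC content and without control replicate 1. ZNF91 (ENSG00000167232; chr19:23304991-23395560, minus strand), the repressor of SVA elements, stayed under the filter at 0.804, 0.550 and 0.654 FPKM with I1 and 0.370, 0.388 and 0.484 FPKM in control. The I1 values were all above the control values, from 97 to 137 reads with I1 and 70 to 89 in control, at a GC content of 38.3%, and no test was made. ZNF93 (ENSG00000184635; chr19:19900913-19963464, plus strand), which represses L1 elements, was near the limit of detection, with 1 to 9 reads per library with I1 and 2 to 8 in control.

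ZNF224 (ENSG00000267680; chr19:44094339-44109886, plus strand), a cofactor of the WT1 protein, had 0.756, 1.05 and 1.18 FPKM with I1 and 0.564, 0.682 and 0.836 FPKM in control and was not tested. ZNF331 (ENSG00000130844; chr19:53519527-53580269, plus strand), an imprinted gene, had 1.19, 1.52 and 1.35 FPKM with I1 and 1.11, 1.22 and 1.32 FPKM in control. The groups of both genes overlapped, and the log2 fold change of ZNF331 was 0.09 ± 0.15 (SE; limma adjusted p = 0.758), below 0 only under quantile normalization (0.05 without control replicate 1). ZNF568 (ENSG00000198453; chr19:36916329-36998700, plus strand), whose mouse counterpart represses Igf2 in the placenta, had 7 to 14 reads per library with I1 and 2 to 16 in control. ZNF254 (ENSG00000213096; chr19:24033405-24129961, plus strand), a close relative of ZNF91 and the tested member poorest in GC, had 2.66, 3.37 and 3.13 FPKM with I1 and 1.37, 2.98 and 2.17 FPKM in control. Its log2 fold change of 0.38 ± 0.20 (SE; limma adjusted p = 0.467) did not pass and was 0.18 without control replicate 1, and its difference from genes of like GC content was -0.07.

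In ZNF160 and ZNF420 samples of the same group lay far apart. ZNF160 (ENSG00000170949; chr19:53066606-53103436, minus strand), described as a repressor of TLR4, had 4.55, 3.33 and 7.35 FPKM with I1 and 2.91, 3.36 and 6.82 FPKM in control, so replicate 3 was the highest of both groups. ZNF420 (ENSG00000197050; chr19:37007857-37130314, plus strand), known as Apak for its inhibition of p53, had 2.03, 2.26 and 1.39 FPKM with I1 and 1.78, 1.72 and 1.08 FPKM in control, and here replicate 3 was the lowest of both. The log2 fold changes of both were 0.20 (SE 0.32 for ZNF160 and 0.19 for ZNF420) and did not pass, and that of ZNF420 was -0.08 after the correction for GC content. For ZNF160 it was 0.0045 without control replicate 1. ZNF175 (ENSG00000105497; chr19:51571298-51592508, plus strand), a factor that restrains the HIV promoter in macrophages, had 2.62, 2.53 and 3.04 FPKM with I1 and 1.71, 2.20 and 2.44 FPKM in control. Its groups did not overlap, and the log2 fold change was 0.26 ± 0.15 (SE; limma adjusted p = 0.467), with 0.13 remaining over genes of like GC content and 0.17 without control replicate 1.

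The partners of KRAB proteins were followed through a list of 24 corepressor genes, all of which were tested and none of which passed. Their median log2 fold change was 0.12 (0.04 without control replicate 1), 17 of the 24 were above 0, and the median difference from genes of like GC content was 0.002. TRIM28, the shared corepressor, had 159, 169 and 162 FPKM with I1 and 222, 188 and 187 FPKM in control. All I1 values were below all control values, and its log2 fold change was -0.28 ± 0.12 (SE; limma adjusted p = 0.467), while genes of its GC content (61.9%) had a median of -0.21. SETDB1, the methyltransferase, averaged 7.23 ± 0.32 FPKM with I1 and 7.17 ± 0.098 FPKM in control (SD, n = 3 each), a log2 fold change of 0.01 ± 0.11 (SE) whose sign turned with the scaling.

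Of the heterochromatin proteins on that list, CBX5 had 11.1, 7.95 and 10.6 FPKM with I1 and 5.47, 6.58 and 7.67 FPKM in control, without overlap (log2 fold change 0.52 ± 0.17, SE; limma adjusted p = 0.467). CBX3 had 37.7, 52.9 and 46.0 FPKM with I1 and 20.1, 45.1 and 32.2 FPKM in control, which overlap, and its log2 fold change of 0.53 was 0.24 without control replicate 1. CBX1 had 38.6, 52.8 and 43.7 FPKM with I1 and 32.3, 53.2 and 41.9 FPKM in control, which overlap. Its log2 fold change of 0.10 was -0.08 without control replicate 1. Of the HUSH complex, which silences young retroelements, FAM208A (TASOR) and MPHOSPH8 were without overlap above control and PPHLN1 overlapped. Over genes of like GC content 0.13, 0.19 and -0.04 remained for these 3, and their log2 fold changes of 0.48, 0.34 and 0.23 were 0.22, 0.21 and 0.08 without control replicate 1. MORC2, also on the list, overlapped at a log2 fold change of -0.19, with -0.20 against genes of like GC content. In the whole list 6 genes (25%) had I1 above control and 1 (4.17%), TRIM28, had I1 below control without overlap, beside 12.9% and 8.74% of all tested genes.

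Along the chromosome the 212 genes form 16 clusters, a new one starting where neighbouring members begin more than 1 Mb apart. The one at the end of the long arm (chr19:55476332-58481230) is the largest, with 57 members of which 47 were tested, and it includes the GC-rich ZNF628, ZNF579, ZNF865 and ZNF581. Its median log2 fold change was -0.01, with 23 members above 0 and 24 below, but 0.06 with 34 above 0 without control replicate 1. The cluster from ZNF565 to ZNF573 (chr19:36182060-37817300), which holds ZNF146, ZNF566, ZNF260 and ZNF420, had a median of 0.27 (0.25 without control replicate 1), and all 14 tested members were above 0. The cluster from ZNF101 to ZNF100 (chr19:19668796-21767628), with ZNF431, ZNF714 and ZNF93, had a median of 0.42 over 7 members, or 0.18 without control replicate 1, which puts it below the cluster from ZNF565 to ZNF573.

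The share of members tested also differed by cluster. It was 82.5% in the terminal cluster and 37.9% in the cluster from ZNF175 to ZNF331 (chr19:51571298-53580269), where 11 of 29 members passed the filter and 8 had 3 reads or fewer on average. The 11 tested members of that cluster were all above 0, with a median of 0.20, and without control replicate 1 the median was 0.09 with 10 above 0. Median GC content over all members was 47.2% in the terminal cluster, 41.6% and 39.0% in the clusters of ZNF146 and ZNF431, and 42.6% in that of ZNF331. Over genes of like GC content 0.05, 0.01, 0.11 and 0.01 remained in these 4 clusters (0.09, 0.13, 0.08 and 0.04 without control replicate 1).

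**Figure D5:**
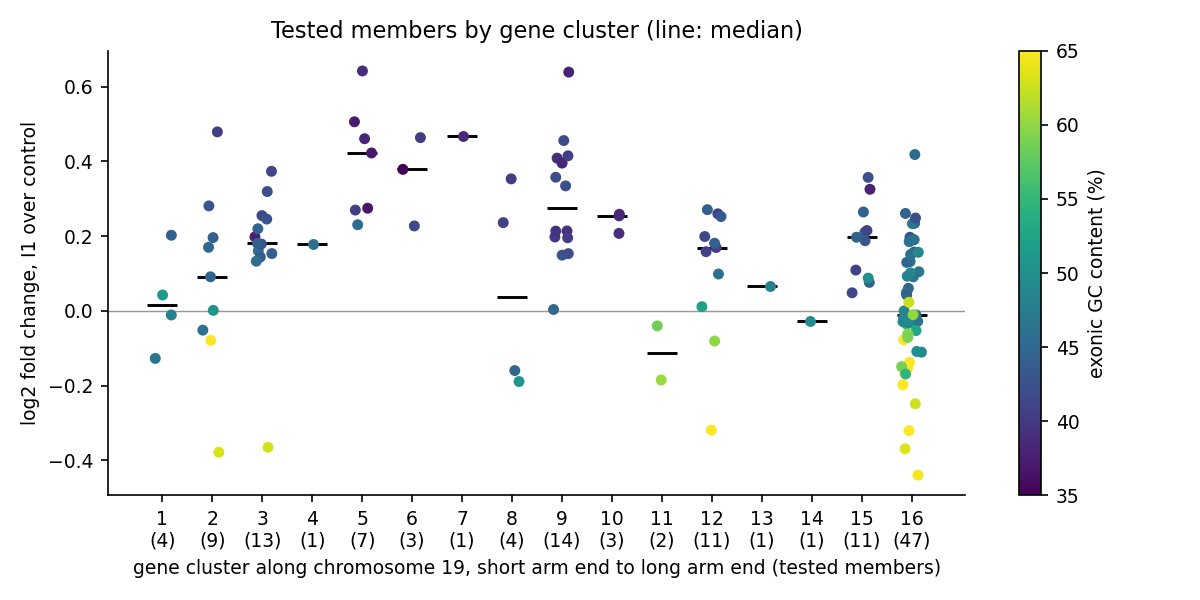
Log2 fold change of I1 over control (y axis) of the tested members in each of the 16 clusters, in their order along chromosome 19 (x axis, with the number of tested members), coloured by exonic GC content, with lines at the medians. Members of the terminal cluster, the last on the axis, spread from -0.44 to 0.42 with the yellow points low, and all points of the clusters of ZNF146 and ZNF431 (the 9th and 5th) lie above 0.

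Promoter windows of the members held many CG steps. RefSeq windows of 250 bases before to 50 after the gene start (GRCh38.p14) were matched for 189 of the 212 members, with a median GC content of 60.7%, beside 58.7% for all 35116 windows. The median number of such steps was 20 in members and 14 in all windows. On either strand, TATAAA was present in 2.12% of member windows and 11.5% of all, CCAAT in 53.4% and 34.6%, and GGGCGG in 66.14% and 44.95%. None of these motifs contains another, and a match is a description of letters, not a site. A pair of windows is printed to set beside the fingers above, with CG steps in capitals.
ZNF260 (chr19:36528222-36528521, minus strand): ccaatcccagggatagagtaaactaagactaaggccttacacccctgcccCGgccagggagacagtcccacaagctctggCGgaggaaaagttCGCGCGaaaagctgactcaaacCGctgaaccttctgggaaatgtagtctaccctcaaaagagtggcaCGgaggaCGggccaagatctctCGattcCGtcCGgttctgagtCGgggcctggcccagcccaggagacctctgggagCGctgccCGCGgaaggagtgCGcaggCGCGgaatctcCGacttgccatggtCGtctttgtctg
ZNF579 (chr19:55580799-55581098, minus strand): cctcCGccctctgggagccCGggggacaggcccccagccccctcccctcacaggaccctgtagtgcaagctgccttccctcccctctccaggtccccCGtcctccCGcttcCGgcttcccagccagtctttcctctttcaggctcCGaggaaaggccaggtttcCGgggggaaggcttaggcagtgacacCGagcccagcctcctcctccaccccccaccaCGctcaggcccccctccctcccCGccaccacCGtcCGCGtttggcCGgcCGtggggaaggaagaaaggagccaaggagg
The ZNF260 window holds 59.7% GC and 20 CG steps although the exons of the gene hold 38.0%, and the ZNF579 window holds 69.7% GC and 15 CG steps with exons of 64.5%.

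The 80 members that were not tested had levels under the filter, and 30 of them were under 0.1 FPKM on average. Others were well above the limit of detection, such as ZNF91 with 70 to 137 reads per library. ZNF223, ZNF320 and ZNF471 were listed at 0 in all 6 libraries, where 3 reads in a kilobase would give 0.165 to 0.183 FPKM. Close copies were few among the 212 members, the only genes compared for shared sequence. ZNF320 shares 69.6% and ZNF468 55.4% of its 50-base stretches with other members, whereas 194 of the 212 share under 10% and 70 share none. Among the 121 tested members under 10%, a limit set after the data were seen, the median log2 fold change was 0.16 and 0.03 remained over genes of like GC content (0.10 and 0.05 without control replicate 1).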

How the data were processed

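The authors deposited 1 table of FPKM values for 29810 genes by Ensembl identifier in 6 sample columns, with no pooling; the table is named for lines and an agent that the labels do not hold, but its column names match the 6 titles, and 0 columns were left unused. Per the labels' protocols, Trizol RNA was made into stranded mRNA libraries. The tools were HISAT2, HTSeq, Cufflinks and Trimmomatic on hg38, per the submitters' processing notes; versions, roles, annotation, strand setting and treatment of multiply mapping reads are in none of the sources used here. FPKM divides by exonic length and a library total, so a few abundant genes can shift all others.

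Exonic length and GC content were computed over the union of exons of GENCODE release 29, which matched 29703 identifiers; 29507 had a symbol. With these lengths 95.3% of matched genes, and 207 of 212 members, came out as whole reads (tolerance 0.05 reads) in every library, which gave the depths and read numbers; they cover counting error only. A count model was not used, since the table holds no counts. The 2-sided test of I1 against control used limma 3.58.1 (R 4.3.3; tables with Python 3.11.15) with its trend option on log2(FPKM + 1), over the 11913 genes that reached 1 FPKM in 3 or more of 6 libraries. For the correction for GC content a lowess trend of each library's deviation on GC content was removed. Fingers and KRAB A boxes were sought by pattern in the longest coding sequence of each gene; the patterns were set on the sequences. The fit was also run on simulated data with no pairing by replicate number, and no result given here rests on that run.

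The read-through gene ZNF559-ZNF177 was left out. The members, lists and settings were chosen with earlier results of these data known. Genes named are the 8 tested members of highest mean FPKM, the 6 with the largest positive and the 6 with the largest negative moderated t, and ZNF91, ZNF93, ZNF274, ZNF331, ZNF224, ZNF420, ZNF160, ZNF568, ZNF175, ZNF254, TRIM28 and SETDB1. Titles carry replicate numbers 1 to 3 in each group. As a check of pairing, Pearson's r of deviations from group means was 0.476, 0.457 and 0.412 for I1 and control samples sharing a number. For the rest it was -0.348 to -0.099. Such deviations cancel within a group, so positive values for shared numbers push the rest down by construction. The positive values go with pairing by number, but the printed SE and adjusted p of each gene come from the fit without the replicate block. For ZNF581 the SE was 0.35 in that fit and 0.11 with the block. Other settings tried were pseudocounts, filters, scalings, the correction for GC content, the replicate block, library weights, no trend, protein-coding genes alone, other windows of like GC content and each library left out.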

Additional observations from a re-analysis of the deposited data

How the results depend on the processing

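No chromosome 19 ZNF gene passed the threshold under any of the settings run, and the smallest adjusted p of a member (limma) lay between 0.128 with array weights and 0.942 with the correction for GC content. Over all genes, 4 were called, 6 with the replicate block, 14 with array weights, 2 with quantile normalization, 1 with the replicate block and the correction for GC content together, and 0 with a pseudocount of 0.1 or 0.5, no filter, a mean of at least 5 FPKM, the correction for GC content or protein-coding genes alone; leaving out 1 library gave 0 to 2. The block changed no call of a member or of a named gene.

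The median log2 fold change of the members was -0.0806 with a mean of at least 5 FPKM, which leaves 19 members, 7 of them above 0; without a filter 156 of 209 were above 0. The share above 0 was 72.0%, against 60.6% with quantile normalization and 58.3% with the correction for GC content. The difference from genes of like GC content was 0.0677 and 0.0533 with pseudocounts of 0.1 and 0.5, -0.0037 without a filter, 0.0611 with a mean of at least 5 FPKM, 0.0003 with quantile normalization, and 0.0115 (without control replicate 2) to 0.0557 (without control replicate 1) with 1 library left out; for these the cause was not tested.

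Of 444 values for 24 named genes under other settings 410 kept their sign, and all stayed on their side of the threshold. Reversed were, with the correction for GC content and likewise with the block added to it, ZNF787 (0.0957), ZNF574 (0.0034), ZNF428 (0.1032), ZNF628 (0.0824), ZNF274 (0.0241), ZNF420 (-0.0792), ZNF254 (-0.0697) and SETDB1 (-0.0247). Median-ratio, upper-quartile and quantile scaling turned ZNF317 (-0.0428, -0.0319 and -0.0320) and SETDB1 (-0.0316, -0.0213 and -0.0578), and quantile normalization ZNF331 (-0.0095). Array weights turned ZNF428 (0.0587) and ZNF160 (-0.2402). With 1 library left out, values ran from -0.6384 (without control replicate 2) to 0.0224 (without control replicate 1) for ZNF581, -0.0241 (without control replicate 3) to 0.0194 (without control replicate 2) for ZNF317, -0.2501 to 0.0099 for ZNF787, -0.1648 to 0.0863 for ZNF428 and -0.1115 to 0.0242 for ZNF274 (each without control replicate 2 and without control replicate 1), -0.0586 (without I1 replicate 3) to 0.5040 (without control replicate 3) for ZNF160, and -0.0182 (without I1 replicate 1) to 0.0378 (without I1 replicate 2) for SETDB1. ZNF317 was -0.0078 without I1 replicate 1, and ZNF274 0.0024 without I1 replicate 3. The cause of these reversals was not tested.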
